A study of Mus musculus with 4 samples.

Results

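Plasmacytoid dendritic cells (pDC) are the dendritic cell (DC) subset best known for type I interferon, and 10 genes that mark them or build their identity were followed in spleen DC of mice given TCDD, the dioxin whose receptor is the aryl hydrocarbon receptor (AhR). The genes were chosen by symbol as pDC markers and factors: Siglech, Bst2, Tcf4, Ly6d, Ccr9, Ly6c2, Pacsin1, Runx2, Spib and Irf7. By the platform's annotation 7 of the 10 had at least 1 probe set of their own, 15 probe sets in all among the 22626 tested. Ly6c2 was represented by 1 probe set that it shares with its neighbour and close relative Ly6c1, so that its signal cannot be split between the pair. No probe set was annotated to Siglech, the sialic acid-binding lectin that is the most used surface marker of mouse pDC, or to Runx2, so the expression of both was not analysed here.

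The study used 4 Affymetrix mouse arrays, 2 for each group. Female C57BL/6 mice, 8 to 12 weeks old and 3 per group, received 10 µg/kg TCDD in corn oil, or the solvent DMSO in corn oil, by intraperitoneal injection, and spleens were taken 24 h later. DC came from pooled spleens by density centrifugation followed by magnetic sorting, with a purity above 90%. The arrays of a group are numbered as biological replicates, but the sources used here do not say whether mice were shared between arrays, and p-values here reflect only how far arrays of a group spread, which may be technical. The arrays measured DC as a whole, so that fewer pDC in the preparation and less RNA per pDC cannot be told apart.

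Plasmacytoid DC arise in the bone marrow and circulate to the spleen, where they sense viral nucleic acids in endosomes through TLR7 and TLR9 and answer with type I interferon through MyD88 and IRF7. The basic helix-loop-helix factor TCF4 (E2-2) sets and holds their identity, with SPIB, an ETS factor shared with B cells, and RUNX2, which supports their exit from the bone marrow, acting beside it, while the inhibitor ID2 favours conventional DC. Several of the surface markers are shared with other cells: BST2 (tetherin), the target of common anti-pDC antibodies, is induced by interferon on many cell types, Ly6D is found on B cells, and Ly6C on monocytes and T cells.

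Little separated TCDD from DMSO among these genes. Limma called 0 of 22626 probe sets in the whole comparison at an adjusted p under 0.05 (0%), with a smallest adjusted p of 0.349, and 0 of the 15 probe sets of the pDC genes. An unadjusted p under 0.05 was reached by 2958 probe sets over all (13.1%) and by 1 of 15 among the pDC genes. The median difference, TCDD minus DMSO on the log2 scale, was -0.05 over the 15 probe sets and 0.00 over all probe sets tested. In 1 of the 15 both TCDD arrays lay below both DMSO arrays, against 18.4% of all probe sets, and in 1 both lay above, against 19.0%. Both of these probe sets were dim, which here means a mean level below the 40th percentile of all probe sets (5.525 on the log2 scale), a range in which a change of the transcript need not show. In all 9 probe sets that were not dim the groups overlapped. Of the 15 probe sets 14 had a difference between groups no larger than the wider of the gaps between replicates of 1 group. The same held for 16152 of the 22626 probe sets tested, and for 5985 of the 8430 with a DMSO mean from 6 to 8.5.

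Promoter sequences of 8 of the 10 genes were taken from RefSeq's table (GRCm38.p6). Tcf4 and Ly6d were not searched. The sequences were windows of 250 bases before to 50 after the start of transcription. They were searched on both strands for GCGTG, the core letters that the ligand-bound AhR recognises, and for a pair of GAAA copies with 2 bases between them, the letters shared by the elements that interferon regulatory factors bind. GCGTG was found in the windows of Bst2 and Pacsin1, and 32.4% of all 32851 windows of this length hold it. Among the 8 genes searched the GAAA pair was found only in the Bst2 window, while 3.44% of all windows hold it. It had 2 overlapping matches there, which begin 130 and 124 bases before the start. The 2 windows with GCGTG are shown because they are the ones among the genes searched that carry the letters of the receptor that TCDD activates. Capitals mark matches to either motif, and each sequence runs 5′ to 3′ on the gene's own strand. The Bst2 window lies at chr8:71537423-71537722 on the minus strand and the Pacsin1 window at chr17:27684989-27685288 on the plus strand.
Bst2: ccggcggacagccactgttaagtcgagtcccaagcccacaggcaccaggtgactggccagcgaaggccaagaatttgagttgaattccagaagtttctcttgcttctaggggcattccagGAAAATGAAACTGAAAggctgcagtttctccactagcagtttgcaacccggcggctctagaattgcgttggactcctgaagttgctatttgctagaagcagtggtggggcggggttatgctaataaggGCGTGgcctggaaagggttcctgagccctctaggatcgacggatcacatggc
Pacsin1: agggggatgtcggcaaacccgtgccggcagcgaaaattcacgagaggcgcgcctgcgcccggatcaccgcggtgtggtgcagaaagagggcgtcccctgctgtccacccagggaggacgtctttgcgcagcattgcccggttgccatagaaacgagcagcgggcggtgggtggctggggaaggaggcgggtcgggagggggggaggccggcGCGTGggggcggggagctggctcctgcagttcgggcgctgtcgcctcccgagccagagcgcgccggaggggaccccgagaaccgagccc
A match describes these letters in these windows and shows no binding in the cells.

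Among the surface markers, Bst2 read 7.2 in DMSO replicate 1, 6.2 in DMSO replicate 2, 6.1 in TCDD replicate 1 and 6.7 in TCDD replicate 2. Pairs of values give replicate 1 first. DMSO replicate 1 held the highest value and TCDD replicate 1 the lowest, and the groups overlapped. The difference was -0.30 (SE 0.478, 95% interval -1.81 to 1.21, n = 2 per group; limma adjusted p = 0.782). Without DMSO replicate 1 it became 0.20 and without TCDD replicate 1 it was 0.00. It was smaller than the gap of 1.0 between the DMSO arrays.

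Ly6d, a small GPI-anchored protein of pDC progenitors and B cells, read 6.8 and 6.0 in the DMSO pair against 6.4 and 6.5 in the TCDD pair. Both TCDD values lay between the DMSO values. The difference was 0.05 (SE 0.333, 95% interval -1.01 to 1.11; limma adjusted p = 0.977), and without DMSO replicate 2 it was -0.35. The probe set shared by Ly6c2 and Ly6c1 read 8.5 and 7.6 in the DMSO pair against 8.0 and 7.8 in the TCDD pair, again with both TCDD values inside the DMSO range. Its difference was -0.15 (SE 0.38, 95% interval -1.35 to 1.05; limma adjusted p = 0.868).

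**Figure D1:**
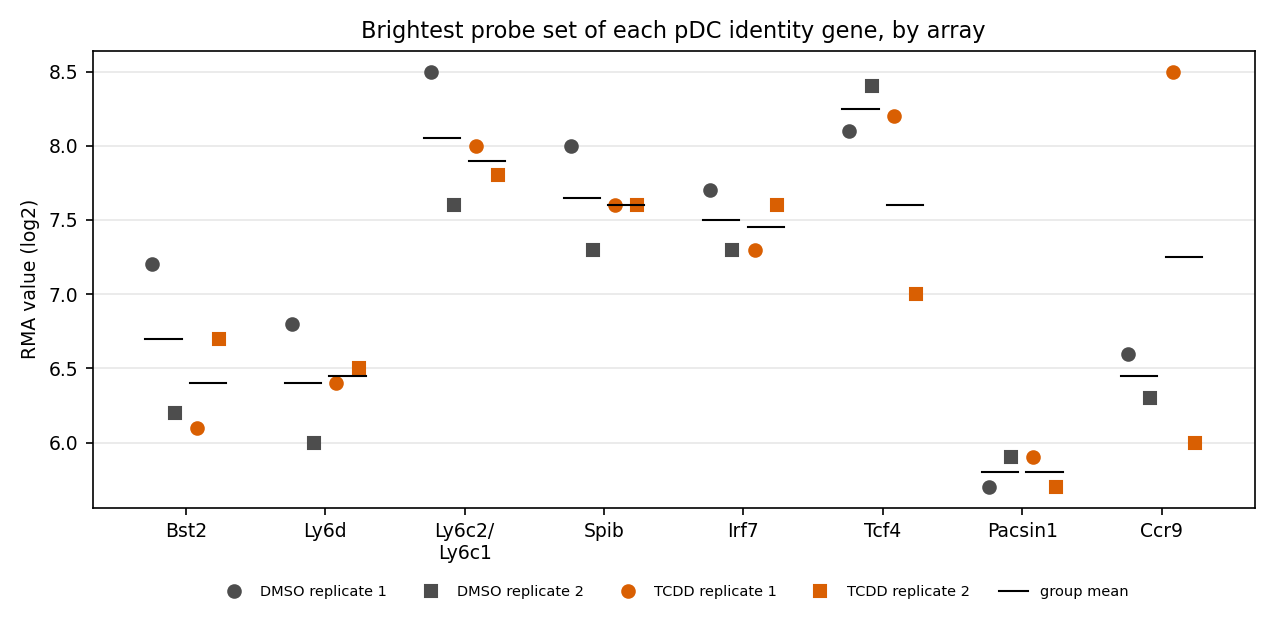
Log2 RMA value (vertical axis) of the brightest probe set of each pDC gene and of the shared Ly6c2 and Ly6c1 probe set in the 4 arrays, with DMSO in grey, TCDD in orange, circles for replicate 1, squares for replicate 2 and black lines for group means. For Ly6d, Spib and the shared Ly6c probe set both TCDD arrays sit inside the DMSO range, and the Ccr9 probe set has 1 high array, TCDD replicate 1 at 8.5.

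Among the transcription factors, Spib lay at 8.0 and 7.3 in DMSO and at 7.6 in both TCDD arrays. The TCDD values sat inside the DMSO range, at a difference of -0.05 (SE 0.291, 95% interval -0.97 to 0.87; limma adjusted p = 0.965). Irf7, the factor that drives interferon-alpha genes and is itself induced by interferon, read 7.7 and 7.3 in the DMSO pair against 7.3 and 7.6 in the TCDD pair. Its groups spanned nearly the same range, with a difference of -0.05 (SE 0.212, 95% interval -0.72 to 0.62; limma adjusted p = 0.93). These small differences have no settled sign: quantile normalization gave 0.18 for Spib and 0.16 for Irf7 and cyclic loess gave 0.14 and 0.12, and without DMSO replicate 1 they were 0.30 and 0.15. Over all probe sets with a DMSO mean from 7 to 8 the median difference was -0.20.

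Tcf4, the factor that defines the pDC fate, had 6 probe sets, and they did not move together. The brightest (1416723_at) read 8.1 and 8.4 in the DMSO pair against 8.2 and 7.0 in the TCDD pair. TCDD replicate 1 sat within the DMSO range and TCDD replicate 2 well below it, for a difference of -0.65 (SE 0.506, 95% interval -2.25 to 0.95; limma adjusted p = 0.594). It was -0.40 after quantile normalization and -0.42 after cyclic loess. Without TCDD replicate 1 the difference was -1.25 (limma adjusted p = 0.203), and leaving out TCDD replicate 2 gave -0.05 (limma adjusted p = 0.921). Another probe set that was not dim (1434148_at) repeated the gap between the TCDD arrays, with 7.1 and 7.5 in the DMSO pair against 7.9 and 6.1 in the TCDD pair. There the TCDD arrays bracketed the DMSO values at a difference of -0.30 (SE 0.752). The second brightest (1416724_x_at) did not repeat that gap. It read 7.8 and 7.2 in the DMSO pair against 7.9 and 7.5 in the TCDD pair, a difference of 0.20 (SE 0.30). Its x_at ending is the maker's sign for a probe set with probes that can also bind other transcripts.

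The remaining Tcf4 probe sets were dim. The probe set 1424089_a_at read 6.1 and 4.9 in the DMSO pair against 5.8 and 5.2 in the TCDD pair, a difference of 0.00 (SE 0.549) with the TCDD values inside the DMSO range. The probe set 1416725_at stayed between 4.0 and 4.3 in the 4 arrays. In 1434149_at the DMSO arrays both read 4.5 and the TCDD arrays 4.2 and 4.0, which is the one case among the 15 of TCDD below DMSO without overlap. Its difference was -0.40 (SE 0.102, 95% interval -0.72 to -0.08; unadjusted p = 0.0293, limma adjusted p = 0.379). TCDD replicate 2 was thus the lowest array, or level with the lowest, in 4 of the 6 Tcf4 probe sets, among them the brightest. Where along the Tcf4 transcripts each probe set lies was not used here.

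Ccr9, the chemokine receptor for CCL25 that guides pDC to the gut and also marks thymocytes, gave a high value in 1 array on 1 probe set. The probe set 1427419_x_at read 6.6 and 6.3 in DMSO, 8.5 in TCDD replicate 1 and 6.0 in TCDD replicate 2. TCDD replicate 1 stood above the 3 other arrays, while TCDD replicate 2 was the lowest of the 4, and the difference of 0.80 carried an SE of 1.02 (95% interval -2.44 to 4.04; limma adjusted p = 0.757). Without TCDD replicate 1 the difference was -0.45. The other Ccr9 probe sets were dim and did not share the high value: 1421919_a_at stayed between 4.6 and 4.8 and 1421920_a_at between 4.3 and 4.4 in all arrays. The Ccr9 probe set with the high value also has the x_at ending, so its probes can bind other transcripts too.

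TCDD replicate 1 also stood apart in the neutrophil marker list. The 9 measured genes of that list summed to 55.6 and 52.4 in DMSO, 67.2 in TCDD replicate 1 and 54.5 in TCDD replicate 2 (sums of log2 values). Without overlap 3 of the 9 were higher in TCDD and 0 lower, and the median difference was 0.60. Over all probe sets with a DMSO mean below 6, 26.6% were higher and 8.54% lower without overlap. At a DMSO mean of 6 to 7 these shares were 19.6% and 16.5%. The list's 4 brightest were Ngp, S100a8, S100a9 and Elane. S100a8, a calcium-binding alarmin abundant in neutrophils, read 6.4 and 5.9 in the DMSO pair against 10.3 and 5.6 in the TCDD pair. S100a9 read 6.4 and 5.6 against 9.6 and 5.3, and Ngp 7.2 and 6.7 against 8.8 and 6.9. Elane did not share the rise, at 6.6 in both DMSO arrays against 6.5 and 6.6. Camp, looked up after its values were seen, was higher in both TCDD arrays, at 5.6 and 5.1 against 6.9 and 6.5. In TCDD replicate 1 the 3′ probe set of Gapdh exceeded the middle one by 3.6, against 1.5 to 2.1 in the other arrays. For beta-actin this excess was 4.0 in TCDD replicate 1, against 1.9 to 2.1 in the other arrays. The part of the neutrophil signal or of these 3′ gaps in the Ccr9 value was not tested. Nor was their part in the other values of TCDD replicate 1, which enter every comparison here.

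**Figure D2:**
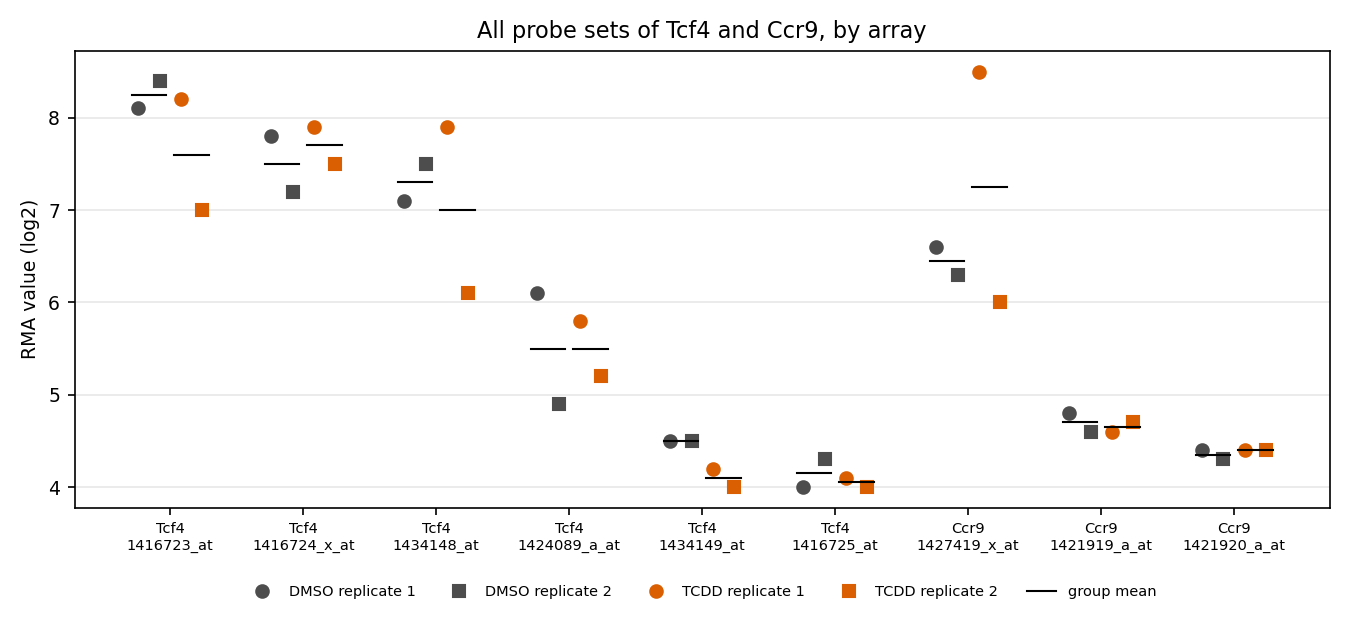
Log2 RMA value (vertical axis) of each Tcf4 and Ccr9 probe set in the 4 arrays, with DMSO in grey, TCDD in orange, circles for replicate 1, squares for replicate 2 and black lines for group means. The gap between the TCDD arrays is 1.2 in 1416723_at and 1.8 in 1434148_at of Tcf4 and 2.5 in 1427419_x_at of Ccr9, and it is 0.1 or less in the other Ccr9 probe sets.

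Pacsin1, an adaptor of membrane traffic needed for the interferon response of pDC to TLR9 ligands, was flat on its brighter probe set (1449380_at), at 5.7 and 5.9 in the DMSO pair against 5.9 and 5.7 in the TCDD pair. The groups held the same values, for a difference of 0.00 with the interval -0.41 to 0.41 (SE 0.131; limma adjusted p = 1). Of the brightest probe sets of the 7 genes this interval was the narrowest. Its other probe set (1449381_a_at), which was dim, read 4.3 in both DMSO arrays and 4.5 and 5.1 in TCDD, the one case of TCDD above DMSO without overlap. That difference was 0.50 (SE 0.252, 95% interval -0.30 to 1.30; limma adjusted p = 0.444).

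**Figure D3:**
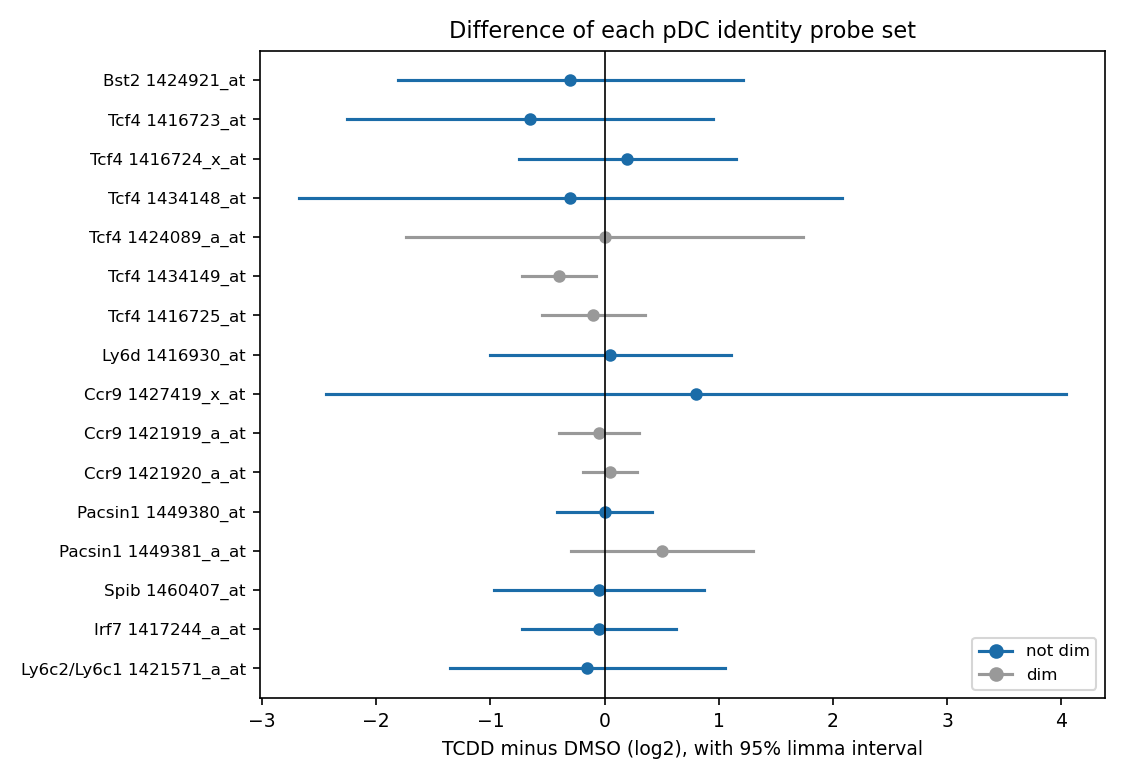
Difference between TCDD and DMSO on the log2 scale (horizontal axis) for the 15 probe sets of pDC genes and the shared Ly6c2 and Ly6c1 probe set, with 95% limma intervals, blue for probe sets that are not dim and grey for dim ones. All intervals but that of the dim Tcf4 probe set 1434149_at reach across 0, and that of Ccr9 1427419_x_at runs from -2.44 to 4.04.

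The intervals show what 2 arrays per group could and could not see. For Pacsin1 a change of the brightest probe set beyond 0.41 in either direction lay outside the 95% interval, and for Irf7 a change below -0.72 or above 0.62. That Pacsin1 probe set had a mean level of 5.8, not far above the dim threshold of 5.525, so its interval bounds the signal more than the transcript. The interval of the other Pacsin1 probe set, which was dim, ran from -0.30 to 1.30. For Bst2, Tcf4, Ly6d and Ccr9 changes of 1 on the log2 scale, which is a 2-fold change, lay inside the interval in at least 1 direction. A p that missed the threshold therefore does not show equal levels in the groups.

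For Bst2, Ly6d, the shared Ly6c probe set, Spib and Irf7 the gap between the DMSO arrays was wider than that between the TCDD arrays. For Ccr9 and the brightest Tcf4 probe set the TCDD gap was the wider one, at 2.5 and 1.2. DMSO replicate 1 exceeded DMSO replicate 2 by 1.0 for Bst2, 0.9 for the shared Ly6c probe set, 0.8 for Ly6d, 0.7 for Spib and 0.4 for Irf7. Pacsin1 ran the other way by 0.2 and the brightest Tcf4 probe set by 0.3, and Ccr9 was higher in DMSO replicate 1 by 0.3. A gap of at least 0.4 in favour of DMSO replicate 1, a size chosen after the values were seen, was held by 5 of these 8 probe sets and by 9.29% of all probe sets tested. Of the 8430 probe sets with a DMSO mean from 6 to 8.5 it was held by 14.2%, with the same share in the opposite direction. The B cell and plasma cell list, which shares Spib and Ly6d expression with pDC, summed to 85.7 and 84.9 over 13 genes in the DMSO arrays and to 85.1 and 79.3 in the TCDD arrays. Of the named B cell genes Cd22 differed between TCDD and DMSO by -0.45, Cd79b and Ms4a1 by -0.60 each and Jchain by -0.55. None passed the adjusted test. Ebf1, a dim probe set, read 4.1 in all 4 arrays. Of the 13 genes 6 were lower and 2 higher without overlap, against 19.4% and 20.0% of all genes. The 2 higher were Cd79a, by 0.45, and Fcer2a, by 0.20, both looked up after their values were seen. The T and NK cell list summed to 62.6 and 59.8 over 10 genes in DMSO and to 61.2 and 59.6 in TCDD. The part of other cells in the gap was not tested.

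Further pDC genes were read from a list on 1 probe set per gene, the brightest, with 21 of 23 genes measured. None passed the adjusted test; 5 were lower in TCDD without overlap, 4 were higher and 12 overlapped, with a median difference of -0.20. On the same footing the 7 pDC identity genes had 0 lower, 0 higher and a median of -0.05, and all 12393 genes had 19.4% lower, 20.0% higher and a median of 0.00. The further pDC list averaged 7.39 and 7.23 in the DMSO arrays. Over all probe sets with a DMSO mean of 7 to 8, 31.9% were lower and 8.65% higher, and at 6 to 7 these shares were 16.5% and 19.6%. Its 4 higher genes, Klk1, Cox6a2, Upb1 and Ptcra, had DMSO means from 5.8 to 6.45. The 4 brightest of this list by mean level were Plac8, Tspan13, Pld4 and Cd7. Tspan13, a tetraspanin, read 10.4 and 10.8 in the DMSO pair against 9.0 and 9.4 in the TCDD pair, a difference of -1.40 (SE 0.238; limma adjusted p = 0.349) with clear separation of the groups. Plac8 read 12.1 and 11.9 in the DMSO pair against 10.8 and 11.4 in the TCDD pair, a difference of -0.90 (SE 0.264; limma adjusted p = 0.379). Plac8 is also made by other leukocytes. Pld4, an endosomal exonuclease that limits TLR9 signals, differed by -0.50 (SE 0.174; limma adjusted p = 0.409) and Cd7 by -0.30 (SE 0.245; limma adjusted p = 0.609). Over all probe sets with a DMSO mean of 8 to 10 the median difference was -0.40, and above 10 it was -0.35, so that lower values in TCDD were common at the levels of these genes. On the higher side Cox6a2, a subunit of respiratory complex IV found in few cell types besides muscle and pDC, read 6.6 and 6.3 in the DMSO pair against 6.9 and 7.3 in the TCDD pair, a difference of 0.65, and was looked up after its values were seen.

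Factors that promote or restrain the pDC fate numbered 20 of 22 measured. Of these 0 were called, 6 were lower and 2 higher without overlap, and the median was -0.35. This list averaged between 7 and 8 in both DMSO arrays. Over all probe sets with a DMSO mean in that range 31.9% were lower and 8.65% higher without overlap, with a median of -0.20. The 2 higher genes, looked up after their values were seen, lay below it, with DMSO means of 4.55 for Id3 and 5.85 for Ikzf1. Over all probe sets with a DMSO mean below 6 the shares were 8.54% lower and 26.6% higher. The 4 brightest were Id2, Irf8, Cbfb and Flt3. Id2, the inhibitor of E proteins that opposes TCF4, read 11.3 and 10.9 in the DMSO pair against 10.5 and 11.0 in the TCDD pair, with overlap and a difference of -0.35 (SE 0.267). Irf8, needed for DC development, differed by -0.25 (SE 0.159) and Flt3, the receptor for the growth factor of all DC, by -0.30 (SE 0.30). Cbfb, the partner of RUNX proteins, read 9.8 and 9.9 in the DMSO pair against 8.2 and 9.4 in the TCDD pair, a difference of -1.05 (SE 0.493; limma adjusted p = 0.444). TCDD replicate 1 lay farther from DMSO than TCDD replicate 2.

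The endosomal TLR pathway to type I interferon, the main effector pathway of pDC, had 18 of 23 genes measured. Of these 0 were called, 3 were lower and 3 higher without overlap, and the median was -0.08. This list too averaged between 7 and 8 in both DMSO arrays, where 31.9% of all probe sets were lower and 8.65% higher. The 3 higher genes were looked up after their values were seen. Tlr9 had a DMSO mean of 7.1, while Ifna5 and Ifnb1 were dim, with DMSO means of 4.65 and 5.15. Over all probe sets with a DMSO mean below 6 the shares were 8.54% lower and 26.6% higher. Its 4 brightest genes were Ikbkb, Irak1, Myd88 and Ap3b1. Myd88, the adaptor of both TLR7 and TLR9, read 9.2 in both DMSO arrays and 9.2 and 8.8 in TCDD. Irak1 differed by -0.05, Ikbkb by -0.10 and Ap3b1 by -0.40, with overlap of the groups in each.

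Irf7 and Bst2 are also interferon-stimulated genes, and 18 of 22 further such genes were measured. None was called, 5 were lower and 0 higher without overlap, and the median was -0.23. Over all probe sets with a DMSO mean of 7 to 8, 31.9% were lower and 8.65% higher without overlap, with a median of -0.20. Among the 4 brightest the difference was -0.20 for Ifih1 (SE 0.407) and -0.20 for Trim30a (SE 0.704). It was -0.30 for Oas1a (SE 0.102) and -0.35 for Rsad2 (SE 0.212). The groups overlapped in all of these but Oas1a, which was lower in TCDD. Over the list the differences ran from -0.90 for Mx1 to 0.30 for Usp18, both looked up after their values were seen. DMSO replicate 2 summed higher than DMSO replicate 1 over this list, at 136.5 against 131.5, while Bst2 and Irf7 were higher in DMSO replicate 1.

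Conventional DC, the antigen-presenting branch of the family, gave a reference. Their 14 measured markers had 7 lower and 0 higher without overlap and a median of -0.55, with 0 called. Of the 4 brightest, Naaa differed by -1.45, Dtx1 by -1.15, Cd24a by -0.90 and Itgax by -0.60, each lower without overlap. Itgax (CD11c), the integrin chain used to define DC, read 9.6 and 10.1 in the DMSO pair against 9.1 and 9.4 in the TCDD pair. Monocyte and macrophage markers stood at 7 of 15 lower, 0 higher and a median of -0.65, B cell and plasma cell markers at 6 of 13 lower, 2 higher and a median of -0.30, and T and NK cell markers at 1 of 10 lower, 1 higher and a median of -0.10. Over all probe sets with a DMSO mean of 8 to 10, near which the conventional DC and the monocyte and macrophage lists average, 41.9% were lower and 2.30% higher without overlap, with a median of -0.40. The difference between any of these lists and the pDC identity genes was not tested. In the TCDD arrays taken singly, the median of the 7 pDC genes differed from the DMSO mean by -0.05 in both, and the conventional DC markers were at -0.60 and -0.43 in TCDD replicates 1 and 2. Single pDC genes moved more, with Ccr9 at 2.05 and -0.45 and Tcf4 at -0.05 and -1.25. The 7 pDC genes averaged 7.16 and 6.77 in the DMSO arrays. Over all probe sets with a DMSO mean of 6 to 7 these medians were 0.10 and -0.10, at 7 to 8 -0.05 and -0.35, and at 8 to 10 -0.25 and -0.525.

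**Figure D4:**
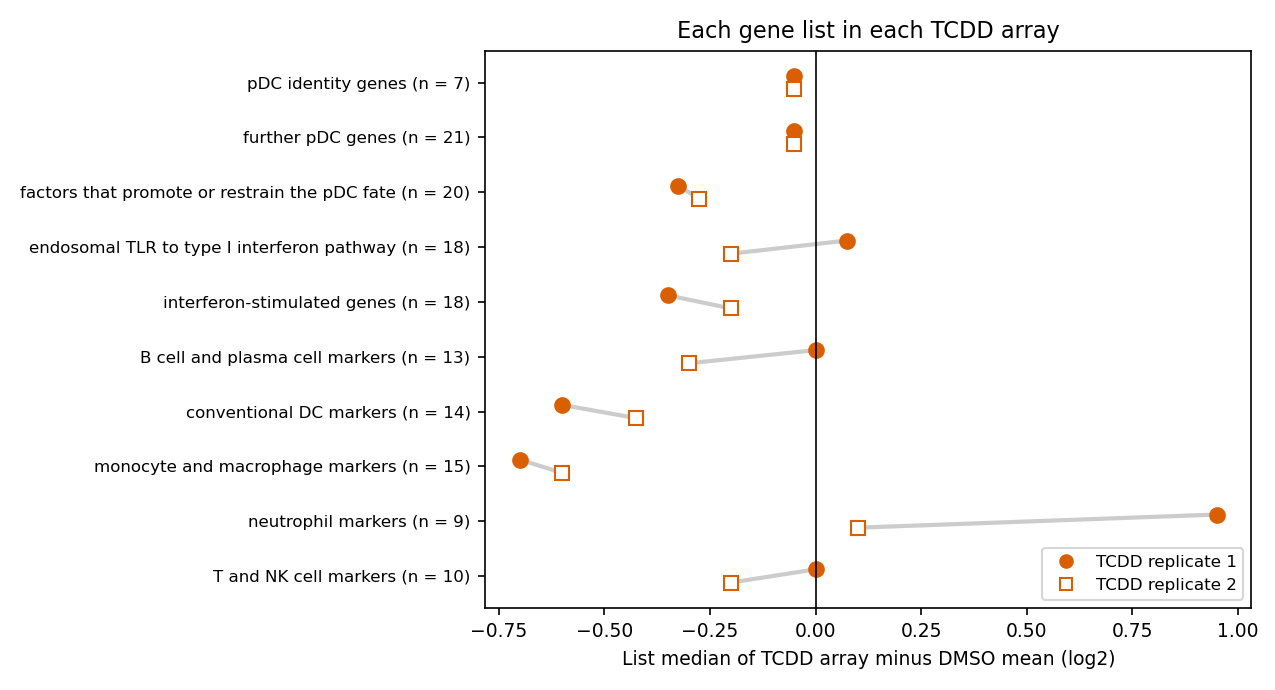
Median over each gene list of the value in a TCDD array minus the DMSO mean (horizontal axis, log2), with filled circles for TCDD replicate 1, open squares for TCDD replicate 2 and n the genes measured. The pDC identity genes sit at -0.05 in both arrays, the conventional DC markers at -0.60 and -0.43, and the neutrophil markers at 0.95 and 0.10.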

How the data were processed

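The authors deposited log2 values made with RMA (background correction, quantile normalization, 1 summary value per probe set), per the submitters' processing notes; which software made them is not stated there. Values are rounded to steps of 0.1. Their upper quartile was 7.2 for each DMSO array but 7.1 and 7.0 under TCDD, replicate 1 first. The deposited values thus did not have the same distribution in all arrays. Quantile normalization of these values therefore still moved differences of single genes, which the closing section gives. The table holds 22690 probe sets, of which 64 controls were left out. By the platform's annotation 20380 of the 22626 tested have 1 symbol, 691 several and 1555 none. Arrays give no counts, so their number limits the precision. RNA was amplified before labelling, per the labels' protocols.

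TCDD was compared with DMSO by a two-sided test without a block in limma 3.58.1 (lmFit, then eBayes, in R 4.3.3). Benjamini-Hochberg adjustment ran over all probe sets tested. The script was tested on simulated data with equal noise in all probe sets. These arrays do not have equal noise, so that test does not show what could be detected here. The smallest p of an exact permutation test is 0.33 here, so none was run. A gene was led by its brightest probe set, and the 4 brightest genes of each list were to be named. Those of the monocyte and macrophage list and of the T and NK cell list are not given. Genes and lists were chosen with earlier results of these data known. Alternatives were 3 normalizations, removal of dim probe sets, a replicate block, a robust prior with a trend, only the brightest probe set of each gene and leaving out each array; 3 more, given in the closing section as added, were chosen after seeing the data.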

Additional observations from a re-analysis of the deposited data

How the results depend on the processing

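Limma called 0 probe sets under all 12 alternatives run, with a smallest adjusted p from 0.114 to 0.604 and 1449 to 5733 probe sets at an unadjusted p under 0.05. The median difference of the 15 pDC probe sets ranged from -0.15 to 0.15 with 1 array left out and was -0.03 under quantile normalization, -0.06 under cyclic loess and -0.10 under median centring. The counts without overlap, 1 lower and 1 higher, became 0 and 0 with dim probe sets removed and with 1 probe set per gene, because fewer probe sets are counted. With 1 array left out, where a lone array overlaps less easily, they ranged from 2 to 7 lower and from 1 to 6 higher. Quantile normalization turned the sign for Spib (0.18) and Irf7 (0.16), as did cyclic loess (0.14 and 0.12); Pacsin1 went from 0.00 to between -0.06 and -0.05, Ly6d stood at 0.00 under median centring, and Bst2, Tcf4 and Ccr9 kept their sign under these normalizations, with Tcf4 at -0.40 under quantile normalization and -0.42 under cyclic loess against -0.65. With 1 array left out the difference ranged from -0.80 to 0.20 for Bst2, -0.45 to 2.05 for Ccr9, -0.25 to 0.15 for Irf7, -0.35 to 0.45 for Ly6d, -0.10 to 0.10 for Pacsin1, -0.40 to 0.30 for Spib and -1.25 to -0.05 for Tcf4. The replicate block, whose numbers are not stated to pair arrays, called 0 probe sets at a smallest adjusted p of 0.421 and changed no call; the replicate 1 minus 2 gaps of DMSO and TCDD had r = -0.189 over probe sets, and the crossed pairing, added after seeing the data, called 0. Counting the shared Ly6c2 and Ly6c1 probe set or leaving out x_at probe sets, both added after seeing the data, left the counts at 1 lower and 1 higher.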
